A study of Mus musculus with 25 samples.

Results

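Chemokines and their receptors were examined in liver RNA of old mice. The set was taken by gene symbol: every entry of the count table named Ccl, Cxcl, Ccr or Cxcr followed directly by a digit, together with Cx3cl1 and Cx3cr1. It held 56 of the 24537 genes in the table, 38 ligands and 18 receptors. The 25 livers came from male C57BL6/J mice aged 24 months and formed 4 groups that crossed genotype with diet. Mice labelled Rosa26KO, a knockout at a locus commonly used as a neutral control, were on control diet (Control_Rosa26KO, n = 6) or on a high-fat diet (HFD_Rosa26KO, n = 6), and mice labelled p53KO were on the same diets (Control_p53KO, n = 6, and HFD_p53KO, n = 7). Every mouse therefore carried a knockout. How the knockouts were generated, the cells in which they acted, and the make-up and length of the diets are not in the labels.

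Chemokines are small secreted proteins that guide leukocytes along a gradient, and their receptors are G protein-coupled receptors on the responding cells. Inflammatory chemokines are switched on by cytokines, interferon or damage and draw neutrophils, monocytes and T cells into tissue, while homeostatic chemokines are made steadily and hold cells in place. In liver, hepatocytes, Kupffer cells (the resident macrophages), sinusoidal endothelium and stellate cells make the ligands, whereas most of the receptors sit on the leukocytes that pass through or settle. A difference in bulk tissue can arise from more cells of a type or from more RNA per cell, and these cannot be told apart here.

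Library totals ran from 16324283 to 21501281 counts, and levels are given as CPM, the usual count of reads per gene scaled to library size, with library sizes adjusted by TMM, a normalization that aligns the bulk of the genes. The summed level of 10 hepatocyte markers lay between 56196 and 168346 CPM in every library. Trp53, the targeted gene, ran from 31.6 to 43.7 CPM (median 35.7) in Control_Rosa26KO and from 30.6 to 43.8 (median 37.2) in HFD_Rosa26KO. In Control_p53KO it ran from 17.2 to 35.6 (median 23.3) and in HFD_p53KO from 19.6 to 31.0 (median 26.1). These ranges overlapped, and its average difference between genotypes was -0.56 on the log2 scale (SE 0.10, edgeR adjusted p = 0.210). Several libraries stood apart in leukocyte or acute phase genes. Neutrophil markers other than Lcn2 summed to 634.9 CPM in Control_p53KO 1, 409.1 in HFD_Rosa26KO 6 and 127.1 in Control_p53KO 3. Kupffer cell markers reached 3829 CPM in Control_p53KO 3 and at most 1523 CPM in any other library. Acute phase genes were highest in Control_p53KO 1, at 84976 CPM, and in Control_Rosa26KO 1, at 70004 CPM.

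Of the 56 members, 38 had enough reads to be tested (27 ligands and 11 receptors). At least 10 CPM on average was reached by 12 members, all of them tested. Another 21 lay between 1 and 10 CPM, of which 20 were tested. The remaining 23 lay under 1 CPM, and 6 of those were tested. Untested members were the ligands Ccl1, Ccl11, Ccl12, Ccl17, Ccl20, Ccl26, Ccl27b, Ccl28, Cxcl3, Cxcl15 and Cxcl17 and the receptors Ccr3, Ccr4, Ccr6, Ccr8, Ccr10, Cxcr1 and Ccr1l1, the last a relative of Ccr1. Cxcl15 and Ccl26 were each represented by 1 read across the 25 libraries.

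Per kilobase of exon, which allows levels of different genes to be compared, Cxcl12 was the most abundant member, at 32.5 CPM per kb. Cxcl12 is the ligand of Cxcr4 and is made steadily by stromal and endothelial cells. It held 17.2% of the summed ligand level. Ccl9 (25.03 CPM per kb), Cxcl9 (19.8), Cxcl1 (17.8) and Ccl6 (17.5) followed, then Cxcl13 (12.1), Ccl5 (11.9), Cxcl10 (8.51) and Cxcl16 (7.99). These are means over all libraries, and that of Cxcl13 was set by a few. Before division by length, Cxcl13 averaged 13.9 CPM with group medians of 1.33 to 4.89, and reached 143.8 CPM in Control_p53KO 3. Cxcr4 was the most abundant receptor at 3.19 CPM per kb, with Cx3cr1 at 1.61 and Ccr2 at 1.54. Summed over the members with a known length, ligands came to 189.5 CPM per kb and receptors to 15.1. These lengths come from the union of annotated exons of 55 members in GENCODE M21, and Ccl21c had no match there.

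**Figure D1:**
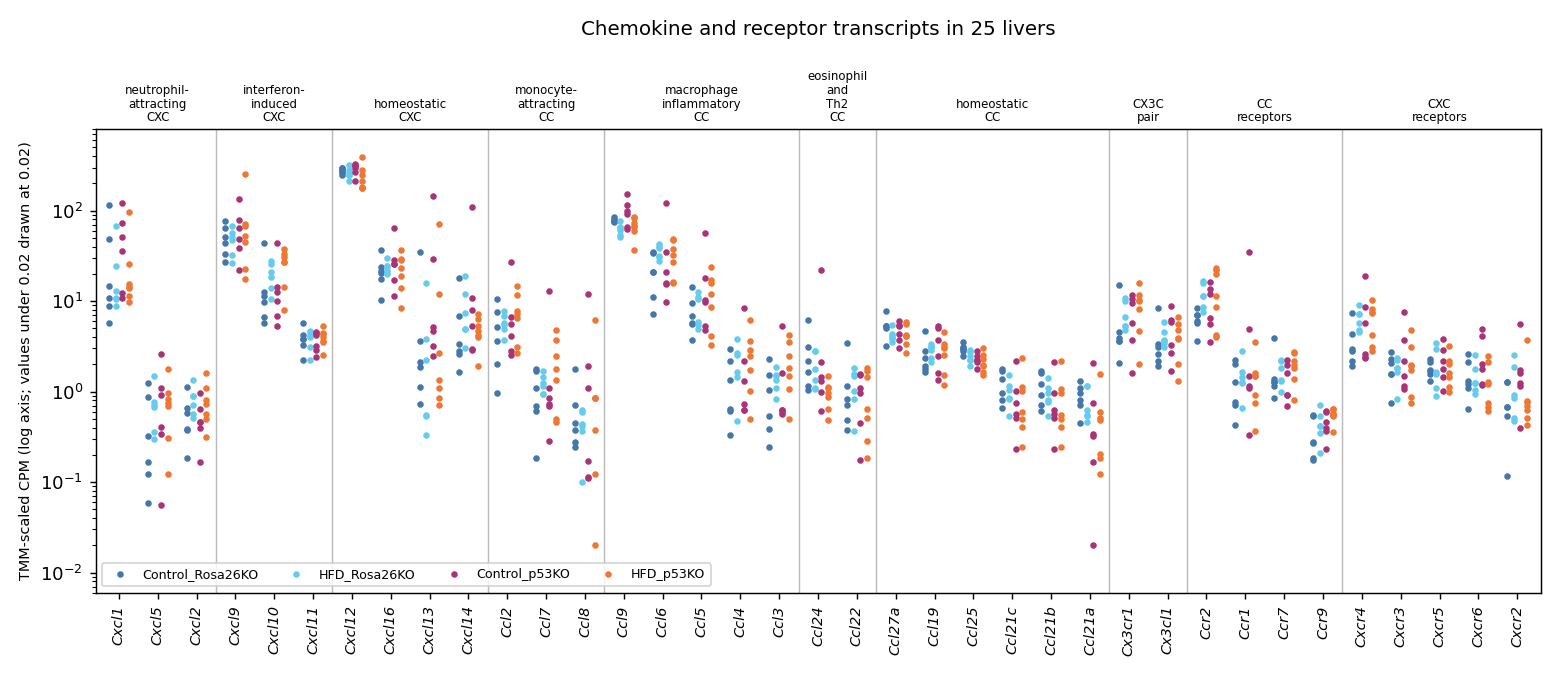
TMM-scaled CPM (log axis) of 37 of the 38 tested members in each of the 25 libraries, in blocks by role; each point is 1 library, coloured by group. Values under 0.02 CPM are drawn at 0.02. Cxcl12 lay between 179.7 and 387.3 CPM in every library, while Cxcl13, Cxcl14, Ccl8 and Ccr1 each had 1 or a few libraries far above the rest.

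The genes of the set are clustered in the genome, with 14 members on chromosome 11, 11 each on chromosomes 5 and 9, 5 on chromosome 4 and the rest on 7 other chromosomes, with Ccl21c not placed. The promoters shown are those of Ccl9, the member that passed the test for diet, of its neighbour Ccl6, and of Cxcl9, Cxcl10 and Cxcl1, the abundant inflammatory CXC ligands. Each sequence is the 250 bases before the transcript start, from RefSeq on GRCm38.p6, written along the gene's strand. Capitals mark matches, on either strand, to the NF-kB-like letters (GGGA and TTCC with any 2 bases between them), the interferon response element (GAAA and GAAA with any 2 bases between them) and the TATA letters TATAAA. Matches that overlap are capitalised as 1 stretch.
Ccl9, GRCm38.p6 chr11:83578637-83578886, minus strand: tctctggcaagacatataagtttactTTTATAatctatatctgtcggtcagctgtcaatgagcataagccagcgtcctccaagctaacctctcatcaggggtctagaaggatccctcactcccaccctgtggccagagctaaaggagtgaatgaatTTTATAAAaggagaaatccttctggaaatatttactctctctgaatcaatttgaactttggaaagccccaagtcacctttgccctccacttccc
Ccl6, GRCm38.p6 chr11:83593088-83593337, minus strand: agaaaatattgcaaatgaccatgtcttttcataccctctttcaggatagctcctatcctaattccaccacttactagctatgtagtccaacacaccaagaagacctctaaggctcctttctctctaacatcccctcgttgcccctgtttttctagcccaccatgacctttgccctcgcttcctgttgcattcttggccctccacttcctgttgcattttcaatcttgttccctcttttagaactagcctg
Cxcl9, GRCm38.p6 chr5:92328080-92328329, minus strand: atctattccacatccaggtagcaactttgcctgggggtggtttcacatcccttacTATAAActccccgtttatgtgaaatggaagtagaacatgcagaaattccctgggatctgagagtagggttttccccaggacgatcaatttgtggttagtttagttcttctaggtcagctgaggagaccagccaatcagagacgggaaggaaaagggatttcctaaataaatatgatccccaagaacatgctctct
Cxcl10, GRCm38.p6 chr5:92348890-92349139, minus strand: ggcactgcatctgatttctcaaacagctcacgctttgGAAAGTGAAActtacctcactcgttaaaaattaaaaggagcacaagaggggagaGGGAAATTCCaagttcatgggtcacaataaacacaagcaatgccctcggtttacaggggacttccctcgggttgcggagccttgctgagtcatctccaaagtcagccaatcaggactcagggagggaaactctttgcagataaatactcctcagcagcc
Cxcl1, GRCm38.p6 chr5:90890995-90891244, plus strand: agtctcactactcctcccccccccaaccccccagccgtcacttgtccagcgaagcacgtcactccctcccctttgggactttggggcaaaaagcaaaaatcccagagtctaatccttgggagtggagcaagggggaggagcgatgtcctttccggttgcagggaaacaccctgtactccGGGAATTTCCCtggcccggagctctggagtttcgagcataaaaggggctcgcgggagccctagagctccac

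The NF-kB-like letters lay 71 bases before the start in Cxcl1 and 159 bases before it in Cxcl10. The interferon element was found in Cxcl10, 213 bases before the start. Neither was found in the windows of Ccl9, Ccl6 or Cxcl9, and TATAAA was found in those of Ccl9 and Cxcl9. Among all 32851 promoters of the same length, 1.21% held the NF-kB-like letters, 2.98% the interferon element and 12.4% TATAAA. Of 47 promoters listed for 40 members, 6 held the NF-kB-like letters (Ccl1, Ccr3, Cxcl1, Cxcl2, Cxcl3 and Cxcl10), 3 the interferon element (Ccl19, Cxcl10 and Cxcl14) and 12 TATAAA. These are matches of letters only.

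Diet was the contrast in which a member passed the edgeR test. Ccl9, a macrophage chemokine that signals through Ccr1 in mouse, was lower on HFD averaged over both genotypes, and the other 37 tested members did not pass. Ccl9 ran from 75.2 to 86.0 CPM (median 77.3) in Control_Rosa26KO and from 50.8 to 76.6 (median 62.7) in HFD_Rosa26KO. In p53KO mice its level ran from 62.2 to 151 (median 96.5) on control diet and from 36.9 to 86.1 (median 67.7) on HFD. Of the HFD_Rosa26KO libraries, 5 lay below every Control_Rosa26KO library and the highest, replicate 3, lay among them, while in p53KO the groups overlapped, with Control_p53KO 1 highest and HFD_p53KO 7 lowest. Group means were 78.7 ± 3.95 against 62.0 ± 9.21 CPM in Rosa26KO (SD, n = 6 each) and 97.9 ± 33.1 (SD, n = 6) against 67.7 ± 16.4 CPM (SD, n = 7) in p53KO.

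Averaged over genotypes, Ccl9 fell by 26.2% on HFD (log2 fold change -0.44, SE 0.13, edgeR adjusted p = 0.0310, quasi-likelihood test with Benjamini-Hochberg adjustment over 14133 genes). By the same rule 9.71% of all tested genes were called, 5.07% as lower and 4.64% as higher, so 1 call among 38 members was below the background. In each genotype alone the difference pointed the same way without passing, at -0.34 in Rosa26KO (adjusted p = 0.338) and -0.53 in p53KO (adjusted p = 0.0951). The library names run on without a break. For a check they were cut here, by replicate number, into 3 runs that each hold libraries of all groups. Within these runs the difference was -0.35, -0.42 and -0.46 on the log2 scale. The labels do not name the runs as batches. The call was kept in 22 of 25 fits that each left out 1 library, and was lost without HFD_Rosa26KO 2 (adjusted p = 0.0531), HFD_Rosa26KO 4 (0.0522) or Control_p53KO 6 (0.0546). Without the 3 libraries high in neutrophil markers the difference was -0.34 on the log2 scale (SE 0.13, edgeR adjusted p = 0.0658).

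Ccl6, a related ligand of Ccr1 whose gene lies beside Ccl9 on chromosome 11, had the opposite sign. Its range was 7.13 to 35.1 CPM (median 20.8) in Control_Rosa26KO against 27.8 to 43.2 (median 35.3) in HFD_Rosa26KO. For p53KO the values were 9.68 to 122 (median 18.5) on control diet and 15.9 to 48.3 (median 32.8) on HFD. The lowest HFD_Rosa26KO library was exceeded by 2 of the 6 Control_Rosa26KO libraries, and Control_p53KO 3 stood far above every other library. With all libraries the difference was not called (log2 fold change 0.26, SE 0.33, edgeR adjusted p = 0.690). Without the 3 libraries high in neutrophil markers, of which Control_p53KO 3 is one, it was called as higher on HFD (log2 fold change 0.86, SE 0.26, edgeR adjusted p = 0.0255).

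**Figure D2:**
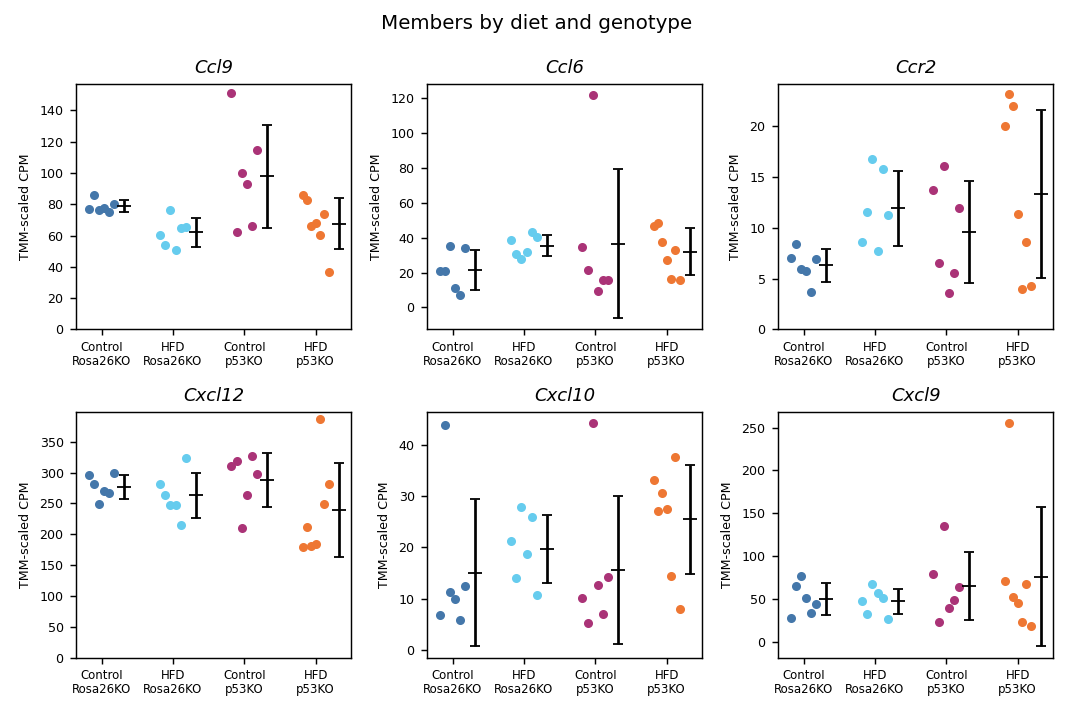
TMM-scaled CPM of Ccl9, Ccl6, Ccr2, Cxcl12, Cxcl10 and Cxcl9 in the 4 groups; points are libraries and the bars to their right are the mean ± SD. The mean of Ccl9 was lower on HFD in both genotypes, at 62.0 against 78.7 CPM and 67.7 against 97.9 CPM, and Ccl6 in Control_p53KO 3 lay above every other library.

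The remaining macrophage inflammatory ligands were Ccl3, Ccl4 and Ccl5, which attract macrophages and T cells. Ccl5, made by T and NK cells among others, ran from 3.69 to 14.4 CPM (median 6.30) in Control_Rosa26KO and from 4.93 to 12.8 (median 8.22) in HFD_Rosa26KO. The p53KO ranges were 4.86 to 56.0 (median 10.1) on control diet and 3.27 to 23.9 (median 12.03) on HFD. The groups overlapped, and Control_p53KO 3 held the highest value. Its diet difference averaged over genotypes was -0.19 (SE 0.37, edgeR adjusted p = 0.803). Ccl3 and Ccl4 had means of 1.55 and 2.11 CPM, differences of 0.44 and 0.40, and no call in edgeR with all libraries.

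Ccr2, the receptor that draws monocytes from blood, ran from 3.66 to 8.37 CPM (median 6.47) in Control_Rosa26KO and from 7.69 to 16.8 (median 11.4) in HFD_Rosa26KO. With p53KO it ran from 3.58 to 16.1 (median 9.27) on control diet and from 3.99 to 23.2 (median 11.4) on HFD. HFD_p53KO 1, 2 and 3 were the highest libraries, at 19.99 to 23.2 CPM, while HFD_p53KO 5 and 7 lay at 3.99 and 4.26 CPM, within the range of both control-diet groups. In Rosa26KO, 5 of 6 HFD libraries lay above every control library, and the remaining one lay below the highest control library. The difference was 0.92 on the log2 scale (SE 0.41, edgeR adjusted p = 0.242) in Rosa26KO and 0.70 (adjusted p = 0.120) over both genotypes. Its ligands Ccl2, Ccl7 and Ccl8 were not called by edgeR, with average diet differences of 0.05, -0.04 and -0.77. The limma voom fit weights each library by its scatter about its group in these same counts, not by a measured quality. In it Ccl2 came to 0.82 with adjusted p = 0.0292 and Ccl7, with the opposite sign to edgeR, to 1.05 with adjusted p = 0.0364. The last ligand of this group, Ccl12, was untested at a mean of 0.333 CPM.

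The interferon-induced ligands Cxcl9, Cxcl10 and Cxcl11 recruit T cells through Cxcr3. Cxcl10 ran from 5.73 to 43.8 CPM (median 10.6) in Control_Rosa26KO and from 10.7 to 27.7 (median 19.9) in HFD_Rosa26KO. Values of 5.32 to 44.2 (median 11.3) were measured in Control_p53KO and of 7.96 to 37.6 (median 27.4) in HFD_p53KO. The groups overlapped, and Control_Rosa26KO 2 and Control_p53KO 3 exceeded every HFD library. The difference over both genotypes was 0.55 on the log2 scale (SE 0.35, edgeR adjusted p = 0.354). Exons of Cxcl10 share 133 bases with Art3 on the other strand, and the strand of counting is not given.

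Cxcl9 ranged over 27.4 to 76.2 CPM (median 47.4) in Control_Rosa26KO and 26.4 to 66.9 (median 48.9) in HFD_Rosa26KO. In the p53KO groups it ranged over 22.3 to 135 (median 56.0) on control diet and 17.6 to 255 (median 52.1) on HFD. HFD_p53KO 2 stood far above the others and the groups overlapped. The diet difference was 0.08 (SE 0.34, edgeR adjusted p = 0.918). Cxcl11, annotated as a polymorphic pseudogene, averaged 3.82 CPM with a difference of 0.05, and Cxcr3 averaged 2.16 CPM with a difference of -0.22.

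Homeostatic ligands had no call in edgeR with all libraries. Cxcl12 ran from 248 to 300.2 CPM (median 276) in Control_Rosa26KO and from 215 to 323 (median 256) in HFD_Rosa26KO. On p53KO background it ran from 211 to 327 (median 304) on control diet and from 179.7 to 387 (median 211) on HFD. Both the lowest and the highest library of all belonged to HFD_p53KO, so the diets overlapped. The difference was -0.17 on the log2 scale (SE 0.11, edgeR adjusted p = 0.359). Its receptor Cxcr4 averaged 5.77 CPM, with a difference of 0.35 that was not called by edgeR with all libraries. In limma voom Cxcl12 was lower (-0.34 with adjusted p = 0.00524) and Cxcr4 higher (1.04 with adjusted p = 0.00182).

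Cxcl16, a membrane-bound ligand of Cxcr6, ran from 10.4 to 37.2 CPM (median 21.03) in Control_Rosa26KO and from 19.8 to 29.8 (median 23.1) in HFD_Rosa26KO. Livers of p53KO mice held 11.4 to 64.7 (median 25.7) on control diet and 8.33 to 36.5 (median 23.0) on HFD. The groups overlapped, with Control_p53KO 3 highest and HFD_p53KO 7 lowest. Its diet difference was -0.12 (SE 0.24, edgeR adjusted p = 0.808), and 552 exonic bases are shared with Zmynd15 on the other strand. Cxcr6, found on T and NKT cells, averaged 1.69 CPM and had a difference of -0.96 in p53KO (unadjusted p = 0.0231, edgeR adjusted p = 0.181).

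Ccl25, a ligand of Ccr9 best known from thymus and gut, was low and even, from 2.49 to 3.54 CPM (median 2.98) in Control_Rosa26KO and from 1.93 to 2.89 (median 2.38) in HFD_Rosa26KO. In p53KO livers its values were 1.79 to 2.803 (median 2.25) on control diet and 1.52 to 3.02 (median 1.99) on HFD. Control_Rosa26KO had the highest median, and all 4 groups overlapped. The diet difference was -0.20 (SE 0.11, edgeR adjusted p = 0.279). Exons of Ccl25 share 204 bases with Elavl1 on the other strand. Ccl19 and the Ccl21 genes, ligands of Ccr7, averaged 2.84 CPM for Ccl19 and 0.686 to 0.989 CPM for Ccl21a, Ccl21b and Ccl21c. Those copies are near identical, so reads may have been split among them. Ccl27a, a ligand of Ccr10, averaged 4.61 CPM. All 6 tested homeostatic CC ligands had a negative average diet difference, from -0.24 to -0.05, where 47.6% of all tested genes had a positive one. The 6 are not separate measures, as Ccl21b and Ccl21c had nearly the same counts in each library. None of the 6 was called by edgeR, while limma voom called Ccl25 and Ccl27a lower (-0.25 with adjusted p = 0.0372 and -0.33 with adjusted p = 0.0297).

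Cx3cl1, a membrane-anchored ligand, and Cx3cr1, its receptor on monocytes and some lymphocytes, averaged 4.11 and 7.27 CPM. Their average diet differences were -0.05 and 0.36, neither called by edgeR, and limma voom called Cx3cr1 higher (0.87 with adjusted p = 0.0131). Cx3cr1 had medians of 3.76 and 6.03 CPM in Control_Rosa26KO and HFD_Rosa26KO, within ranges of 2.07 to 14.9 and 4.74 to 10.7 that overlapped. Ccr7, the receptor that brings dendritic cells and naive T cells to lymphoid tissue, averaged 1.67 CPM with a diet difference of 0.23. Ccr9, the receptor of Ccl25, averaged 0.447 CPM with 0.35, and Cxcr5, the receptor of Cxcl13, 1.93 CPM with -0.09. On the other strand, Bcl9l shares 110 exonic bases with Cxcr5 and Slc6a20a shares 22 with Ccr9. Ccl22, which attracts regulatory and Th2 cells through Ccr4, averaged 1.06 CPM with -0.03. By role, the 5 tested CC receptors had a median diet difference of 0.35 (4 of 5 above 0) and the 5 tested CXC receptors of -0.09 (1 of 5), while the 4 homeostatic CXC ligands had -0.52 (0 of 4). The last median rests in part on single control-diet libraries. Cxcl13 reached 143.8 CPM in Control_p53KO 3 and Cxcl14 reached 111.2 CPM in Control_p53KO 1.

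Over the whole set, 15 of 38 members had a positive and 23 a negative diet difference averaged over genotypes, with a median of -0.07 against -0.01 for all tested genes. At an unadjusted p under 0.05 there were 4, with Ccl9, Ccl24 and Ccr2 among them, against 24.3% of genes. In Rosa26KO no member was called by edgeR, against 1.51% of all tested genes. At an unadjusted p under 0.05 there were 2, with Ccr2 among them, against 17.5% of all tested genes. DESeq2 also called none there (4.35% of genes), and limma voom with sample weights called 5 as higher, with Ccl6, Ccr2, Cxcl10 and Cxcr4 among them (21.5% of genes). In p53KO none was called by edgeR, against 2.87% of genes, none was free of overlap, against 1.05%, and 5 had an unadjusted p under 0.05, against 18.8%. All 5 were lower on HFD (Ccl24, Ccr1, Cxcl14, Ccl9 and Cxcr6). There DESeq2 called Ccl24, Ccr1 and Cxcl14 lower (6.42% of genes), and limma voom called Ccl3 and Cxcl10 higher and Cxcl12 lower (15.5%). Beside these members, the monocyte marker list, which holds Ccr2, had 9 of 12 genes above 0 in the average diet difference, against 47.6% of all tested genes. It had no call in edgeR. Its summed level ran from 165.9 to 553.6 CPM in Control_Rosa26KO, 409.1 to 655.2 in HFD_Rosa26KO, 203.3 to 1433 in Control_p53KO and 195.9 to 1117 in HFD_p53KO, and no gene of the list was at 0. Of 10 hepatocyte markers, none at 0, 5 were called lower on HFD by edgeR, against 5.07% of all tested genes. Their sum had a median of 149860 CPM (108179 to 168346) in Control_Rosa26KO and 92648 (66362 to 167399) in HFD_Rosa26KO, and in p53KO 142999 (79244 to 150266) on control diet and 72765 (56196 to 121428) on HFD. Of 12 Kupffer cell markers, none at 0, 1 was called lower by edgeR (Cd163), against the same 5.07%. The sum of these 12 ran from 362.4 to 1209 CPM in Control_Rosa26KO and 982.5 to 1523 in HFD_Rosa26KO, and in p53KO from 693.3 to 3829 on control diet and 486.7 to 1342 on HFD. Counted as genes above 0, the other lists had 0 of 10 (hepatocyte), 4 of 12 (Kupffer cell), 2 of 13 (T and NK cell) and 5 of 13 (neutrophil). Sinusoidal endothelium had 3 of 10, with Clec4g called lower by edgeR, and stellate cells 4 of 10, with Reln and Ecm1 called lower. B and plasma cells had 4 of 7, dendritic cells 4 of 8, cholangiocytes 1 of 6, acute phase genes 3 of 11 and platelets 4 of 5. The part of these cell types in the diet differences was not tested.

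The count of calls for diet differed between fits, which were unlike in method or in the libraries used. Without Control_p53KO 1, Control_p53KO 3 and HFD_Rosa26KO 6, the libraries highest in neutrophil markers other than Lcn2, 6 of 41 tested members rose on HFD averaged over genotypes and none fell. Of all genes, 17.6% were called in either direction and 8.59% called higher. Among the 6 were the ligands Ccl3 (log2 fold change 1.11), Ccl4 (1.24) and Ccl6 (0.86) and the receptors Ccr2 (0.94) and Cxcr4 (0.81), with edgeR adjusted p between 0.0255 and 0.0406. With Lcn2 counted, the markers summed to 3950 CPM in HFD_p53KO 2, which was kept, and to 211 CPM in Control_p53KO 3. Control_p53KO 3, on control diet, also held the highest value of 17 of the 38 tested members. Leaving it out lowers their control-diet level, so the direction of the change was partly set by the choice of libraries. With all libraries kept and each weighted in limma voom by its scatter about its group, 12 members rose and 4 fell, against 35.4% of genes called in either direction. Those that rose included Ccl2, Ccl3, Ccl4, Ccl6, Ccl7, Ccr2, Ccr7, Cx3cr1, Cxcl2, Cxcl10 and Cxcr4, and the 4 were Ccl9, Ccl25, Ccl27a and Cxcl12. DESeq2 called Ccl9 and Ccl24, both lower, against 12.7% of genes.

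**Figure D3:**
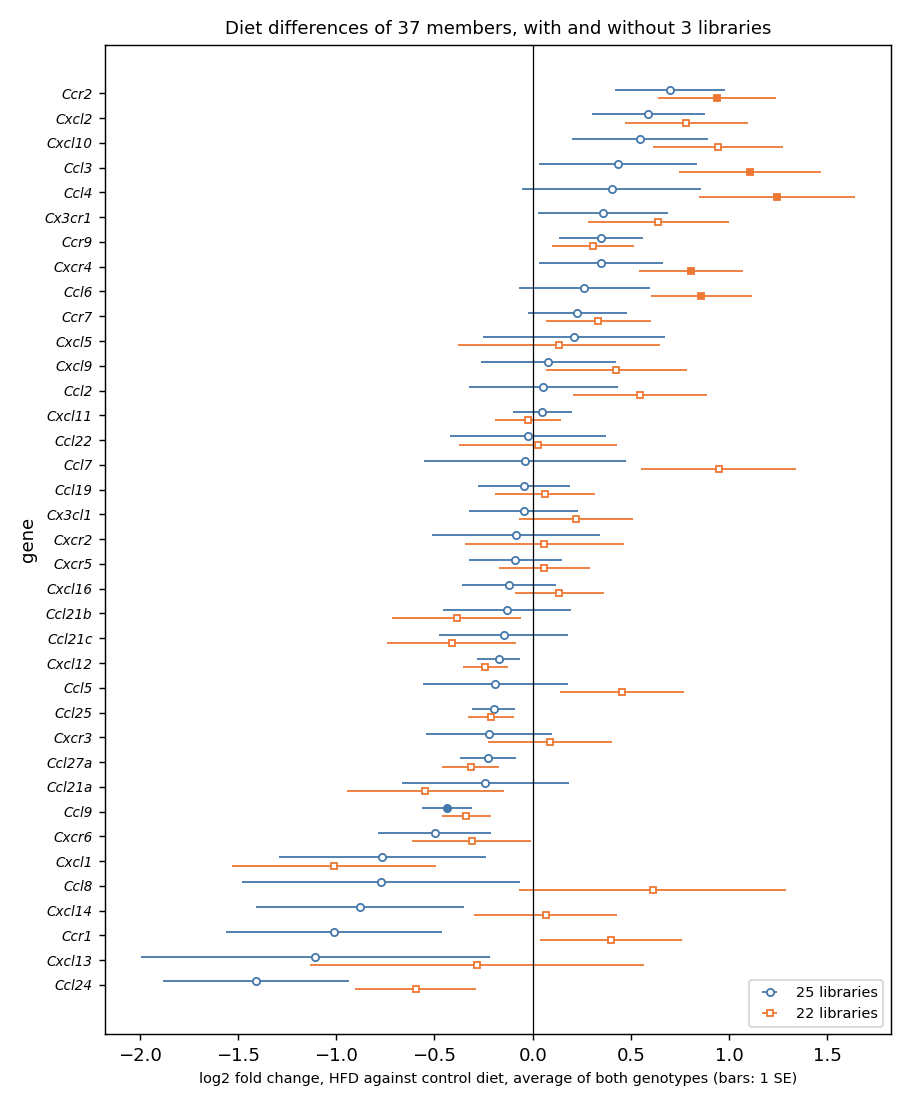
log2 fold change of HFD against control diet, averaged over genotypes, for 37 of the 38 tested members with all 25 libraries (circles) and with the 22 that remain without the 3 libraries high in neutrophil markers (squares); bars are 1 SE and filled symbols have an adjusted p under 0.05. With 25 libraries only Ccl9 is filled, and with 22 the filled symbols are Ccr2, Ccl3, Ccl4, Cxcr4 and Ccl6, all to the right of 0.

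Genotype gave no call in edgeR, DESeq2 or limma voom. On control diet no member of 38 passed in edgeR, DESeq2 or limma voom, which called 0%, 0.00708% and 0% of all tested genes. In edgeR 5 members had an unadjusted p under 0.05, against 9.96% of all tested genes. Of these Ccr1 (2.54 on the log2 scale), Cxcl14 (1.99), Cxcr2 (1.36) and Ccl5 (1.19) had positive differences in p53KO and Ccl25 (-0.39) a negative one, and the smallest adjusted p was 0.453. Ccl5 came to -0.0091 without the 3 libraries high in neutrophil markers. In this comparison 29 of 38 members had a positive difference, against 51.9% of all tested genes. The median of the members was 0.49, against 0.01 for all tested genes. By role the median ran from -0.41 in the 6 homeostatic CC ligands, of which 1 lay above 0, to 1.45 in the 3 monocyte-attracting CC ligands, all above 0. Without the 3 libraries high in neutrophil markers the median over 41 tested members was -0.09, with 15 above 0. On control diet this left out Control_p53KO 1 and Control_p53KO 3 and no Rosa26KO library. Control_p53KO 3 held the highest value of 17 of the 38 tested members. The changes in Ccl5 and in the median were therefore partly set by the choice of libraries, and do not bear on genotype. No member was free of overlap between genotypes, against 0.283% of all tested genes on control diet and 0.149% on HFD. On HFD 19 members lay above 0 and 19 below, none had an unadjusted p under 0.05 and none passed in edgeR, DESeq2 or voom, which called 0%, 0.00708% and 0% of all tested genes, with 3.6% at an unadjusted p under 0.05 in edgeR. Averaged over diets no member passed in these tools, which called 0%, 0.0495% and 0.0142% of genes. At an unadjusted p under 0.05 in edgeR there were 6, against 4.05% of genes (Ccl5, Ccl7, Ccl8, Ccl25, Ccr1 and Cxcl13).

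The interaction, which asks whether the diet difference was unlike in the 2 genotypes, gave no call in edgeR, DESeq2 or limma voom either, which called 0%, 0.0354% and 0% of all tested genes. Cxcl14 (-2.82, SE 1.06, edgeR adjusted p = 0.560) and Ccr1 (-2.61, SE 1.10, adjusted p = 0.566) were the 2 members with an unadjusted p under 0.05, against 8.64% of all tested genes. Without the 3 libraries high in neutrophil markers they came to -0.14 and 0.26. Those 3 include Control_p53KO 1, the highest library for Cxcl14, and Control_p53KO 3, the highest for Ccr1. These changes were therefore partly set by the choice of libraries.

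**Figure D4:**
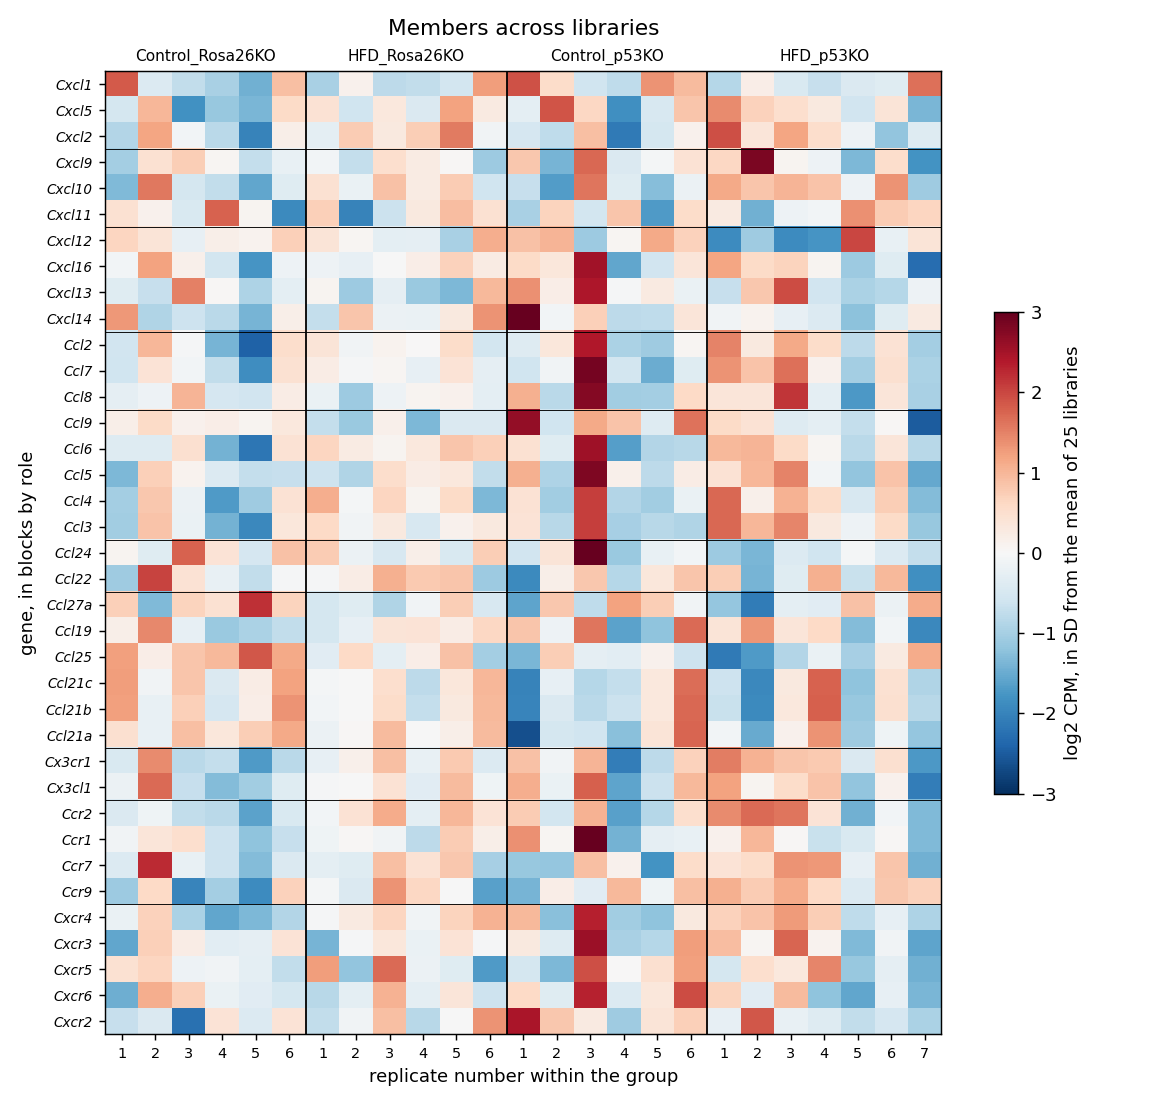
log2 CPM of 37 of the 38 tested members (by role from top to bottom) in the 25 libraries (by group from left to right), as the distance from the mean of all libraries in SD. Control_p53KO 3 holds the highest value of 17 members, while HFD_p53KO 7 and Control_Rosa26KO 5 hold the lowest of 7 and 6.

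Single libraries set much of the spread. Control_p53KO 3 held the highest value of 17 of the 38 tested members and was among the top 3 libraries for 21. The members it led included the monocyte ligands Ccl2, Ccl7 and Ccl8, the macrophage ligands Ccl3, Ccl4, Ccl5 and Ccl6, and the receptors Ccr1, Cxcr3, Cxcr4, Cxcr5 and Cxcr6. In the same library the Kupffer cell list of 12 markers, none at 0, summed to 3829 CPM, against group medians of 813.3 to 1141 CPM. The T and NK cell list, with 13 of 15 markers in the table and none at 0, summed to 162.9 CPM there and to at most 57.5 CPM elsewhere. The monocyte list summed to 1433 CPM. The part of these cells in the chemokine values was not tested.

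Ccr1, the receptor of Ccl3, Ccl5, Ccl6 and Ccl9 on myeloid cells, ran from 0.427 to 2.27 CPM (median 1.03) in Control_Rosa26KO and from 0.656 to 2.84 (median 1.37) in HFD_Rosa26KO. Its p53KO values were 0.336 to 34.8 (median 1.32) on control diet and 0.370 to 3.54 (median 1.47) on HFD. The second highest Control_p53KO library lay at 4.97 CPM, and the other 4 at 1.49 CPM or less. The diet difference in p53KO was -2.32 on the log2 scale (SE 0.75, edgeR adjusted p = 0.0861), it reached an adjusted p of 0.0334 without Control_p53KO 4, and it turned to 0.53 (edgeR adjusted p = 0.605) without the 3 libraries. Without them the difference against Rosa26KO on control diet turned from 2.54 to -0.31. Control_p53KO 3, which held the highest Ccr1 value, is among the 3, so these turns were partly set by the choice of libraries.

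Ccl24, eotaxin-2, draws eosinophils through Ccr3. It ran from 1.04 to 6.16 CPM (median 1.91) in Control_Rosa26KO and from 1.06 to 2.85 (median 1.57) in HFD_Rosa26KO. Control_p53KO held 0.616 to 22.05 (median 1.38) and HFD_p53KO 0.488 to 1.48 (median 0.961). Control_p53KO 3 lay far above its group, and the groups overlapped. The diet difference in p53KO was -2.33 on the log2 scale (SE 0.67, edgeR adjusted p = 0.0564), the smallest adjusted p of any member there, and DESeq2 gave an adjusted p of 0.00866. The edgeR call was reached without Control_p53KO 1 (adjusted p = 0.0421) or Control_p53KO 4 (adjusted p = 0.0223). Without the 3 libraries, of which Control_p53KO 3 is one, it was -0.54 (edgeR adjusted p = 0.526).

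Ccr3 itself did not have enough reads in enough libraries to be tested, and is described because of its values. It lay at 64.0 CPM in Control_p53KO 3 and 13.9 CPM in Control_Rosa26KO 3. In the other 23 libraries it lay between 0 and 1.25 CPM, with 0 reads in 4. Tested without the filter on low counts, its average diet difference was -3.71 (SE 1.15, edgeR adjusted p = 0.0574).

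Cxcl13, the ligand of Cxcr5 that guides B cells, also peaked in those replicates. It ran from 0.732 to 35.2 CPM (median 2.01) in Control_Rosa26KO and from 0.335 to 15.8 (median 1.40) in HFD_Rosa26KO, and in p53KO from 2.45 to 144 (median 4.89) on control diet and from 0.716 to 72.0 (median 1.33) on HFD. Replicate 3 was the highest library of Control_Rosa26KO, Control_p53KO and HFD_p53KO, and HFD_Rosa26KO 6 was the highest of its group. The groups overlapped, with a genotype difference of 1.91 (SE 0.91, edgeR adjusted p = 0.966) averaged over diets, and of 1.07 without the 3 libraries high in neutrophil markers. Those 3 include the highest libraries of Control_p53KO and HFD_Rosa26KO. The B and plasma cell list, with 7 of 9 markers in the table, summed to 190.2 to 385.5 CPM over all libraries.

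Ccl8, a monocyte chemoattractant, ran from 0.244 to 1.80 CPM (median 0.410) in Control_Rosa26KO and from 0.101 to 0.627 (median 0.428) in HFD_Rosa26KO, and in p53KO from 0.112 to 11.99 (median 0.637) on control diet and from 0 to 6.19 (median 0.847) on HFD. Replicate 3 was again the highest of Control_Rosa26KO, Control_p53KO and HFD_p53KO, and 1 HFD_p53KO library had 0 reads. Averaged over diets its genotype difference was 1.82 (SE 0.72, edgeR adjusted p = 0.966), and 0.44 without the 3 libraries, of which Control_p53KO 3 is one.

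Neutrophil-related members peaked in other libraries. Cxcl1, the main neutrophil-attracting ligand that hepatocytes make in the acute phase response, ran from 5.73 to 116 CPM (median 12.7) in Control_Rosa26KO and from 8.80 to 68.1 (median 11.9) in HFD_Rosa26KO. In p53KO mice the range was 10.7 to 123 (median 43.4) on control diet and 9.87 to 96.7 (median 14.3) on HFD. The highest libraries of the 4 groups were Control_Rosa26KO 1, HFD_Rosa26KO 6, Control_p53KO 1 and HFD_p53KO 7, and the groups overlapped. Acute phase genes summed to 70004, 32569, 84976 and 34205 CPM in these libraries, against group medians of 13870 to 19394 CPM. The match was not complete: HFD_p53KO 2 had 41244 CPM of acute phase genes with 25.8 CPM of Cxcl1, and Control_p53KO 5 had 73.2 CPM of Cxcl1 with 20135 CPM of acute phase genes. The part of that response in the Cxcl1 values was not tested. The diet difference was -0.76 on the log2 scale (SE 0.53, edgeR adjusted p = 0.405). It was -1.01 (edgeR adjusted p = 0.183) without the 3 libraries high in neutrophil markers. Cxcl2 and Cxcl5, which act on the same receptor, averaged 0.679 and 0.720 CPM.

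Cxcr2, the neutrophil receptor of these ligands, averaged 1.24 CPM and was highest in Control_p53KO 1, at 5.61 CPM. It is itself 1 of the 14 neutrophil markers, of which 13 were tested. The granule markers Elane, Ngp, Camp, Ltf and Mmp8 and the surface marker Ly6g had 0 reads in at least 1 library. With Lcn2 left out, because hepatocytes also make it, the list ran from 7.93 to 36.8 CPM in Control_Rosa26KO and 14.8 to 409.1 in HFD_Rosa26KO, and in p53KO from 11.3 to 634.9 on control diet and 10.9 to 64.6 on HFD.

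Cxcl14, a steadily made ligand of epithelia and stroma, ran from 1.65 to 18.1 CPM (median 3.09) in Control_Rosa26KO and from 3.05 to 18.9 (median 6.22) in HFD_Rosa26KO. For p53KO livers the values were 2.91 to 111 (median 6.65) on control diet and 1.94 to 7.28 (median 4.62) on HFD. Control_p53KO 1 stood alone at the top, and the other 5 libraries of its group overlapped every other group. The diet difference in p53KO was -2.29 on the log2 scale (SE 0.74, edgeR adjusted p = 0.0881), and -0.00146 without the 3 libraries. On control diet the genotype difference of 1.99 turned to -0.30 without them. Control_p53KO 1 is one of the 3, so both changes were partly set by the choice of libraries.

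**Figure D5:**
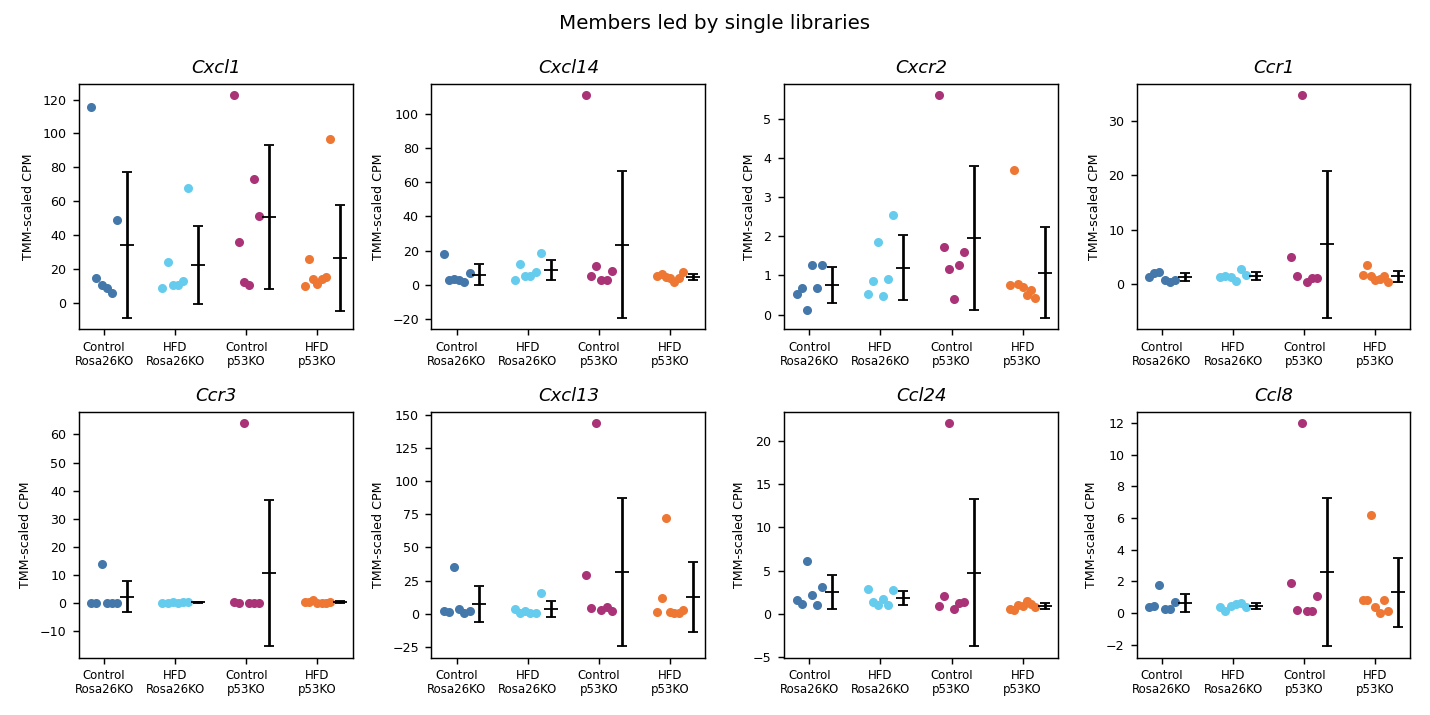
TMM-scaled CPM of Cxcl1, Cxcl14, Cxcr2, Ccr1, Ccr3, Cxcl13, Ccl24 and Ccl8 in the 4 groups; points are libraries and the bars to their right are the mean ± SD. Ccr1, Ccr3, Cxcl13, Ccl24 and Ccl8 reach 34.8, 64.0, 143.8, 22.05 and 11.99 CPM in Control_p53KO 3, and Cxcl14 and Cxcr2 reach 111.2 and 5.61 CPM in Control_p53KO 1.

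Genes that work with the set were looked at as lists. Among 14 partners outside the naming rule, such as the platelet chemokines, the scavenging Ackr receptors and the peptidase Dpp4, 1 was called by edgeR in any of the 7 comparisons. This was Ppbp, a platelet chemokine, which was higher on HFD in Rosa26KO (log2 fold change 4.32, SE 0.999, edgeR adjusted p = 0.0293), where 1.51% of all tested genes were called. Its values in HFD_Rosa26KO ran from 1.19 to 130.2 CPM (median 2.16) and overlapped those of Control_Rosa26KO, 0.774 to 1.80 (median 1.10). The highest was HFD_Rosa26KO 6, without which the difference was 1.48 (adjusted p = 0.188). The call was also lost without Control_Rosa26KO 1, 4, 5 or 6 (adjusted p = 0.0530 to 0.0694), with limma voom (1.49, adjusted p = 0.184), with the compared groups alone (0.0761), with a term for the run of library names (0.0552), with the replicate number as a block (2.73, adjusted p = 0.121) and without the libraries high in neutrophil markers (0.113) or in acute phase genes (0.0526). In HFD_Rosa26KO 6 the platelet markers, a list of 6 that holds Ppbp, summed to 236.5 CPM, against 7.79 CPM in the median library of its group. The part of platelets in this difference was not tested. Of 23 receptor signalling genes tested (G protein subunits, phosphoinositide kinase, Rac and Vav proteins, arrestins, receptor kinases and Rgs proteins) none was called by edgeR in any comparison. The share of all tested genes called ran from 0% between genotypes to 9.71% for diet averaged over genotypes. The list was not flat: 21 of 23 lay above 0 for p53KO on control diet (median 0.64) and for HFD in Rosa26KO (0.45). For the interaction 0 of 23 did (-0.73). For HFD in p53KO and for p53KO on HFD 5 did (-0.20 and -0.07). What set these differences was not tested.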

How the data were processed

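RNA was measured in 25 flash-frozen livers by sequencing of polyA-selected libraries in read pairs of 75 bases. The deposited values are raw read counts per gene, which the authors made with STAR and HOMER on GRCm38/mm10, per the submitters' processing notes. The sources used here do not give program versions, the annotation, the strand setting or how multiply mapped reads were treated. Reads of overlapping genes and near-identical copies may therefore be shared or lost. No libraries were identical. All 24537 genes entered the library totals.

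Counts were filtered with filterByExpr (minimum count 10, minimum total 15), which left 14133 genes, scaled by TMM and fitted over the 4 groups with edgeR 4.0.16 (robust quasi-likelihood test) in R 4.3.3. The 7 comparisons were genotype in each diet and averaged, diet in each genotype and averaged, and the interaction. A call is a Benjamini-Hochberg adjusted p under 0.05 over all genes tested. Fold changes come from the fitted model and understate those of genes with few reads. Alternatives used DESeq2 1.42.0, limma 3.58.1 voom with sample quality weights, other scaling, filter, dispersion and covariates, and subsets of libraries. The labels do not state whether libraries of a group came from separate cages or batches, so p-values measure the spread between these samples.

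The members, their roles, the lists and the subsets of libraries were chosen with earlier results of these data known. Members given by group are those that passed in a comparison, the 10 with the highest mean CPM and the 2 with the smallest p in each comparison. Ccr3 and Cxcr2 were added after their values were seen. Lengths and positions come from GENCODE M21, and promoters from RefSeq. Proteins are not shown. The results of 1 tested member and of the list of chemokine inducers are not reported here.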

Additional observations from a re-analysis of the deposited data

Results flagged for a closer look

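Of 64 groups of libraries looked at for 16 members (each member in each of the 4 groups), 20 held 1 library set apart from the rest by Dixon's test, where chance alone sets apart about 1 in 20 groups. Over all 14133 tested genes the same test set apart a library in 10.1% of groups. The 16 members were chosen in part for a high mean or a small p, which 1 outlying library can raise, so their count is not comparable with either share. Control_p53KO 3 was set apart for 8 members, all of them high: Cxcl13 at 143.8 CPM, Ccl6 at 122.0, Cxcl16 at 64.7, Ccl5 at 56.0, Cxcl10 at 44.2, Ccr1 at 34.8, Ccl24 at 22.05 and Ccl8 at 11.99 CPM. The B cell ligand Cxcl13 and the monocyte ligand Ccl8 were also set apart in Control_Rosa26KO 3, at 35.2 and 1.80 CPM, and in HFD_p53KO 3, at 72.0 and 6.19 CPM.

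In HFD_p53KO 2 the interferon-induced Cxcl9 stood at 255.4 CPM and the receptor Ccr1 at 3.54 CPM. In HFD_Rosa26KO 6 the neutrophil ligand Cxcl1 stood at 68.1 CPM and Cxcl13 at 15.8 CPM. Cxcl1 stood at 96.7 CPM in HFD_p53KO 7, and Cxcl10 at 43.8 CPM in Control_Rosa26KO 2. Cxcl14 stood at 111.2 CPM in Control_p53KO 1 and at 18.1 CPM in Control_Rosa26KO 1, the libraries with the highest acute phase sums.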

How the results depend on the processing

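No member was called in the genotype comparisons or the interaction under any alternative. Calls in Rosa26KO for diet went from 0 to 5 with limma voom and to 1 (Ccr2, adjusted p = 0.0315; 4.77% of all genes) with the compared groups alone, and stayed at 0 in all 25 fits without 1 library. Calls in p53KO for diet went from 0 to 3 with DESeq2 and 3 with voom, and ranged from 0 to 3 with 1 library left out (1 without Control_p53KO 1, 3 without Control_p53KO 4). Calls for diet averaged over genotypes went from 1 to 2 with DESeq2, 16 with voom, 2 with a term for the run of library names (12.7% of all genes), 6 without the libraries high in neutrophil markers and 3 with the replicate number as a block (Ccl9 and Ccr2 among them; 16.1% of all genes). They ranged from 0 to 3 with 1 library left out: 0 without HFD_Rosa26KO 2 or 4, 3 without Control_Rosa26KO 2 or Control_p53KO 1 or 4, and 2 without Control_Rosa26KO 1, 4, 5 or 6, Control_p53KO 2, 3 or 5, or HFD_Rosa26KO 6. RLE scaling (9.7% of all genes), no filter on low counts (6.03%) and dispersion without the robust option (9.76%) left 1 call, Ccl9. So did the fit without the libraries high in acute phase genes. For that fit and those without 1 library the share over all genes is not given. Their counts of calls may therefore only follow the number called among all genes. Several fits with fewer libraries also tested Ccr3, which was then called as lower on HFD (-3.86 on the log2 scale, edgeR adjusted p = 0.0363, without Control_Rosa26KO 1). Its reads lay mainly in Control_p53KO 3 (64.0 CPM) and Control_Rosa26KO 3 (13.9 CPM), both on control diet, with at most 1.25 CPM in any other library.

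Without the libraries high in neutrophil markers the genotype differences on control diet turned to -0.30 for Cxcl14 and -0.31 for Ccr1, and Ccr1 turned to 0.53 for diet in p53KO and 0.26 for the interaction. The libraries left out include the highest ones for Cxcl14 and Ccr1, so these turns were partly set by that choice. Without HFD_p53KO 2, Cxcl9 between genotypes on HFD turned from 0.70 to -0.0251, and the other fits without 1 library gave at most 0.87. Same-numbered libraries did not deviate together in every pair: correlations of deviations ran from -0.40 to 0.58, -0.27 to 0.41, -0.03 to 0.18 and -0.23 to 0.60 in the 4 pairs of groups, and 2, 1, 0 and 3 of 6 libraries correlated best with their own number. The numbers were not taken as pairs. The causes of these shifts were not tested. With 6 or 7 livers a group and several-fold spread in many members, a missed threshold does not show that groups were alike.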
